A study of Macaca mulatta with 20 samples.

Results

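RNA of rhesus macaque thymus was set against RNA of 4 other rhesus sources, testis, pancreas, cerebral cortex and a line of immortalized fibroblasts grown in culture. Members were the arrays whose labels named thymus, which were 4 of 20, 2 of 10 on the Rhesus Macaque Genome Array and 2 of 10 on the Human Genome U133 Plus 2.0 array. Every source had 2 arrays of each type, and the labels named them technical replicates. Aliquots of 1 RNA per source were labelled, from 5 ug of total RNA extracted with Trizol, and hybridised to both array types. The labels gave no treatment of the tissues, the fibroblasts were set apart from them by immortalization and culture, and the sex and age of the animals were not given in the sources used here. Because arrays of a source shared an RNA, the p-values measured the spread between arrays and not between animals. In bulk RNA, fewer cells of a type and less RNA per cell cannot be told apart.

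The thymus is the organ in which progenitors from the bone marrow become T cells. Progenitors commit to the T lineage under Notch signals, divide, rearrange their receptor genes with the RAG enzymes and pass through a stage in the cortex at which they carry both CD4 and CD8. Cortical epithelial cells test the new receptors for weak self-recognition, and the survivors follow chemokines into the medulla, where epithelial and dendritic cells remove strongly self-reactive cells.

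The values were log2 expression levels of probe sets, 1 value per probe set and array, on which a difference of 1 is a 2-fold ratio. Control probe sets with no added target read 2.23 to 2.83 on rhesus arrays and 2.38 to 2.84 on human arrays, so levels near 3 were close to the floor. The thymus arrays correlated with each other at 0.997 (rhesus) and 0.995 (human) across probe sets. A gene was read on the probe set with 1 symbol that was brightest over all arrays of a type, which gave 14132 genes on rhesus and 19775 genes on human arrays. A gene was called when the limma test of thymus minus the mean of the other 4 source means gave an adjusted p below 0.05 and a difference of at least 1, and was above each other source when each of the 4 pairwise tests did. Where a gene has a pair of differences, the rhesus value stands before the human value, and 3 values for the other sources are the lowest, median and highest of their 8 arrays. The mean of the other sources held a pancreas RNA in which housekeeping genes were low: ACTB was at 14.62 and 14.64 in thymus and at 11.35 in pancreas on rhesus arrays. The gap between 3' and 5' control probe sets, which widens as RNA breaks down, was 2.07 in thymus and 4.58 in pancreas for actin and 1.38 and 2.76 for GAPDH on rhesus arrays, and 2.03 and 2.40 for actin and 0.118 and 1.31 for GAPDH on human arrays. The share of probe sets that differed at least 2-fold between the arrays of a source was 0.542% in thymus and 3.94% in pancreas on rhesus arrays. The part of pancreas RNA quality in the differences was not tested beyond the values without pancreas. Of 6 housekeeping genes on rhesus arrays 2 were called higher in thymus, with a median difference of 0.63, and of 11 on human arrays 2 were, with a median of 0.55.

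The label was borne out by the markers of developing T cells. DNTT, the enzyme that adds bases at receptor gene joints, was at 13.00 and 12.96 in thymus, against a lowest and median of 3.10 and 3.53 on the 8 rhesus arrays of the other sources and a highest source mean of 7.88, in testis. RAG2, a subunit of the recombinase, was at 10.76 and 10.63 in thymus, against a lowest, median and highest of 3.15, 3.67 and 4.89. CD1B, a lipid-presenting molecule of cortical thymocytes, was at 13.96 and 13.98, against 3.14, 3.71 and 8.51. In all 3 cases the thymus arrays stood above every other array. GATA3, a transcription factor of T cell commitment, was at 11.08 and 11.12 in thymus and at 2.51, 2.67 and 3.34 elsewhere. The limma differences were 8.48 for DNTT (SE 0.107, adjusted p = 2.25e-08), 6.86 for RAG2 (adjusted p = 3.90e-09), 9.19 for CD1B (adjusted p = 1.81e-08) and 8.37 for GATA3 (adjusted p = 5.05e-08). On the human arrays the same RNA gave 7.34, 4.85, 6.36 and 8.78 for these genes, in the same order.

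Thymus stood apart in many genes beside these. On the rhesus arrays 2361 genes were called higher in thymus (16.7% of those tested) and 2558 lower (18.1%), and 890 (6.30%) were higher than in each of the other 4 sources. On the human arrays the counts were 1908 higher (9.65%), 1996 lower (10.1%) and 708 above each other source (3.58%). Of 11956 genes on both array types 1145 were called higher on both (9.58%), 1178 lower on both (9.85%) and 396 above each other source on both (3.31%). The median difference over all genes was -0.06 on rhesus and -0.04 on human arrays. The counts of each list below are to be read beside the shares of all genes given here. Among the genes called higher, the highest other source was most often testis, in 43.8% of them on rhesus and 44.1% on human arrays, then fibroblasts (30.5% and 31.4%), pancreas (14.7% and 12.7%) and cerebral cortex (11.1% and 11.8%). The highest other source was not counted over all genes, so whether these shares differ from those of all genes was not tested.

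Ranked by the smaller of their differences on the 2 array types, the first 20 higher in thymus were GATA3, ADA, PTPRC, DNTT, TRAF3IP3, GMFG, MYB, TRAT1, CD8B, RHOH, IL2RG, IRAG2, UBASH3A, LCP2, CD1B, SEPTIN1, PLAC8, CXCR4, PRSS16 and LTB. ADA, the purine enzyme whose loss causes severe combined immunodeficiency, was at 12.40 and 12.35 in thymus against 3.34, 4.94 and 5.99 on rhesus arrays, and at 10.59 and 10.66 against 2.48, 3.14 and 3.70 on human arrays. Its differences were 7.57 and 7.52 (limma, adjusted p = 5.94e-08 and 1.65e-08), so the array types gave nearly 1 value for it. PTPRC, the CD45 phosphatase of blood cells, differed by 7.44 and 8.50. The adaptor gene TRAF3IP3 differed by 7.16 and 7.39, and GMFG, an actin regulator of leukocytes, by 7.41 and 7.11. IRAG2 differed by 7.36 and 6.48, SEPTIN1 by 6.44 and 6.36 and PLAC8 by 6.61 and 6.35. The 10 genes with the largest gap to the highest other source on both types were GATA3, RHOH, ADA, UBASH3A, S100A8, CD8B, TRAT1, PRSS16, SEPTIN1 and DPP4, with gaps of 5.83 or more. DPP4, a peptidase on the surface of T cells, had differences of 5.99 and 6.30.

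Genes of the cortical stage were called nearly throughout. Of 13 measured on rhesus arrays 12 were called higher, 11 of them above each other source, with a median difference of 6.87. Of 18 measured on human arrays 17 were called higher, all 17 above each other source, with a median of 4.86. All 12 called on rhesus arrays were also called on human arrays, and the one that was not called on either was CD99, an adhesion molecule of many cell types, at -0.62 and -0.68.

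The co-receptor chains were prominent among them. CD8A was at 13.29 and 13.27 in thymus and at 3.78, 4.88 and 7.47 on the other rhesus arrays, a difference of 7.97 (limma, adjusted p = 3.94e-06). CD8B differed by 7.82 on rhesus and 6.86 on human arrays. CD4 differed by 6.04 and 2.48, and on both types its thymus arrays stood above every other array. The human value of CD8B rested on a probe set whose suffix marks matches to several transcripts, and without such probe sets it was -0.05. The probe set then read was near the floor in thymus (2.41 and 2.39) and elsewhere (2.36 to 2.59).

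Recombination and lipid presentation genes were called with them. RAG1, the other recombinase subunit, was measured on human arrays, at 10.79 and 10.63 in thymus against a highest value of 5.99 elsewhere, and differed by 6.45. CD1C, which presents lipids as CD1B does, differed by 6.66 and 5.05, and SH2D1A, an adaptor of SLAM receptors, by 6.73 and 5.55. AQP3, a water and glycerol channel, differed by 6.87 and 4.87. PTCRA, the surrogate chain of the pre-T cell receptor, differed by 7.84 on rhesus but 1.79 on human arrays, where the other sources read 5.13 to 6.09. CD1A differed by 8.38 and 2.34 in the same way, with the human thymus arrays at 4.75 and 4.30 and the others at 2.16 to 2.27. For both genes the human array gave the same direction with a smaller difference.

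**Figure D1:**
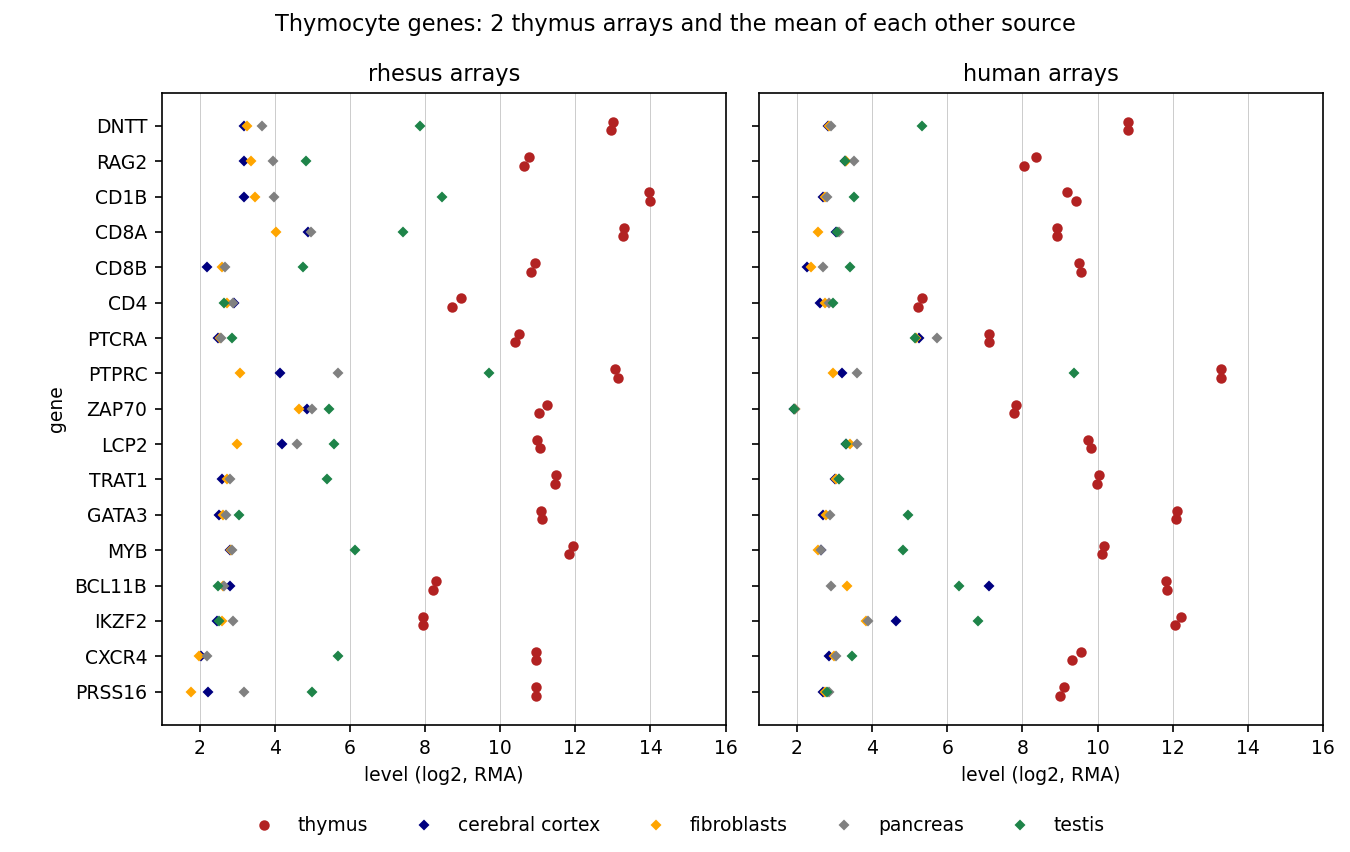
Log2 expression levels (horizontal axis) of 17 genes of developing T cells and of the thymic cortex, on rhesus arrays (left) and human arrays (right). Red circles are the 2 thymus arrays and diamonds are the mean of 2 arrays of each other source. CD8A lay at 13.29 and 13.27 in thymus on rhesus arrays and its highest other array at 7.47.

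Genes of the stages before and after the cortex were mixed. Of 13 early progenitor genes on rhesus arrays 6 were called higher and 2 lower (median -0.07), and of 16 on human arrays 2 were called higher and 3 lower (median 0.16). Of all genes 16.7% and 9.65% were called higher, so the human share stood near that of all genes. NOTCH3, a Notch receptor that thymocytes use, differed by 3.71 and 2.77. DTX1, a Notch target, differed by 6.87 on rhesus arrays and was not called on human arrays (-0.57), and its other rhesus probe set was at -0.94, also not called. HES1 of the same list was lower by -1.46 on human arrays and not called on rhesus arrays (-0.34). The human call of HES1 was lost without fibroblasts in the mean (-0.98). NOTCH1 was not called on human arrays (0.41). BCL11A, a factor of early lymphoid cells and of neurons, was at 9.73 and 9.81 in thymus but at 9.31 in cerebral cortex, so its difference of 4.24 did not place it above each other source. KIT, the stem cell factor receptor, was lower by -1.31 and -1.07 against a mean that included 9.01 in cerebral cortex on rhesus arrays. Without cerebral cortex the KIT differences were -0.55 and -0.29, which were not called, and the human call was also lost without 1 thymus array (-0.95).

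Of 11 genes of maturing thymocytes on rhesus arrays 4 were called higher (median 0.68), and of 16 on human arrays 4 were (median 0.34), with none lower on either. The shares called higher among all genes were 16.7% and 9.65%. CCR7, the receptor that leads cells into the medulla, was at 6.77 and 7.05 in thymus against 4.61 to 6.24 on rhesus arrays, a difference of 1.74, and at 5.94 and 6.71 against 2.38 to 2.41 on human arrays, a difference of 3.93. It was the 1 member called on both types. CD69, which marks cells after positive selection, differed by 7.09 on rhesus arrays and by 0.39 on human arrays, where thymus read 3.17 and 3.28, near the floor. IL7R, a receptor for a survival cytokine, was measured on human arrays, where it differed by 3.70. KLF2 (0.04 and 0.23), which drives exit from the thymus, FOXP3 (-0.19 and -0.43), the factor of regulatory T cells, and S1PR1 on human arrays (-0.50), the exit receptor, were not called. A gene that few cells express can be below what a bulk RNA shows, and the share of cells at each stage was not measured.

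T cell receptor signalling genes were called in large part. Of 22 on rhesus arrays 19 were higher, 18 of them above each other source, with a median difference of 4.43, and of 32 on human arrays 25 were higher, 23 above each, with a median of 4.04. None was lower on either type. Of 21 on both types 14 were higher on both. Receptor subunits were measured on human arrays, with CD3D at 5.67, CD3G at 6.15 and CD247, the zeta chain, at 7.11. CD3E was not called there (0.80), with thymus at 2.65 and 2.84, near the floor. CD247 was at 9.68 and 9.78 in thymus, against 2.26, 2.49 and 3.20 elsewhere, with no overlap. TRBC1, a beta chain constant segment chosen after its values were seen, was at 12.85 and 12.88 in thymus and at 6.67 to 8.89 in the other sources.

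Kinases and adaptors downstream of the receptor showed the same direction. LCK, the kinase that phosphorylates the receptor, differed by 7.86 on human arrays. ZAP70, the kinase recruited to the phosphorylated receptor, was at 11.24 and 11.03 in thymus against 4.59, 4.92 and 5.49 on rhesus arrays, a difference of 6.15 (limma, adjusted p = 1.21e-08), and differed by 5.87 on human arrays. LCP2, the SLP-76 adaptor, differed by 6.68 and 6.39, TRAT1, an adaptor that binds the receptor, by 8.09 and 6.94, and RHOH, which helps ZAP70 reach the receptor, by 7.13 and 6.78. UBASH3A, SLA and PTPN22, which dampen receptor signals, were called on both types. UBASH3A was at 8.64 and 8.62 against 2.09, 2.16 and 2.22 on rhesus arrays and differed by 6.48 and 6.55. SLA differed by 8.21 and 5.64 and PTPN22 by 3.72 and 4.01. CD5, a surface receptor that also dampens them, was called on rhesus arrays, at 9.29 and 9.13 in thymus against 2.86 to 4.20 elsewhere, and not on human arrays (0.40). CTLA4, an inhibitory receptor, was likewise called on rhesus arrays alone (2.21 and -0.30). Of the costimulatory receptors CD28 was called on both types (4.56 and 3.49) and ICOS on rhesus arrays (5.48 and 0.42).

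Of 29 T lineage transcription factors on rhesus arrays 22 were called higher and 3 lower (median 3.79), and of 30 on human arrays 22 were higher and none lower (median 3.29). The remaining 8 on human arrays were not called. Of 26 on both types 17 were higher on both. GATA3 led, with 12.13 and 12.08 in thymus on human arrays against 2.67, 2.84 and 5.20. MYB, a factor of dividing progenitors, was at 11.94 and 11.84 against 2.80, 2.84 and 6.25 on rhesus arrays, and differed by 8.23 and 6.98. BCL11B, which seals T cell identity, differed by 5.61 and 6.92. All 3 stood above each other source on both types.

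The HMG-box pair of Wnt signalling was split between the arrays, with TCF7 measured on the rhesus (13.37 and 13.37 in thymus, 2.80 to 8.11 elsewhere, difference 7.92) and LEF1 on human arrays (difference 7.45). The Ikaros family genes of the list were called on both types: IKZF1 at 6.21 and 4.05, IKZF2 at 5.34 and 7.35, and IKZF3 at 3.13 and 6.13. TOX, needed for CD4 cells, differed by 4.98 and 5.25. ID3, an inhibitor of E proteins induced by receptor signals, differed by 3.29 and 3.11, and averaged over its rhesus probe sets by 0.85, below the call. The E proteins themselves went apart between array types. TCF12 was lower by -1.24 on rhesus arrays, where both of its probe sets were lower, and higher by 3.15 on human arrays. Without fibroblasts the rhesus value was -0.63 and not called. TCF3 was at -4.36 on its brightest rhesus probe set, while 3 of its 7 rhesus probe sets were called higher and 3 lower, and at 0.80 on human arrays.

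**Figure D2:**
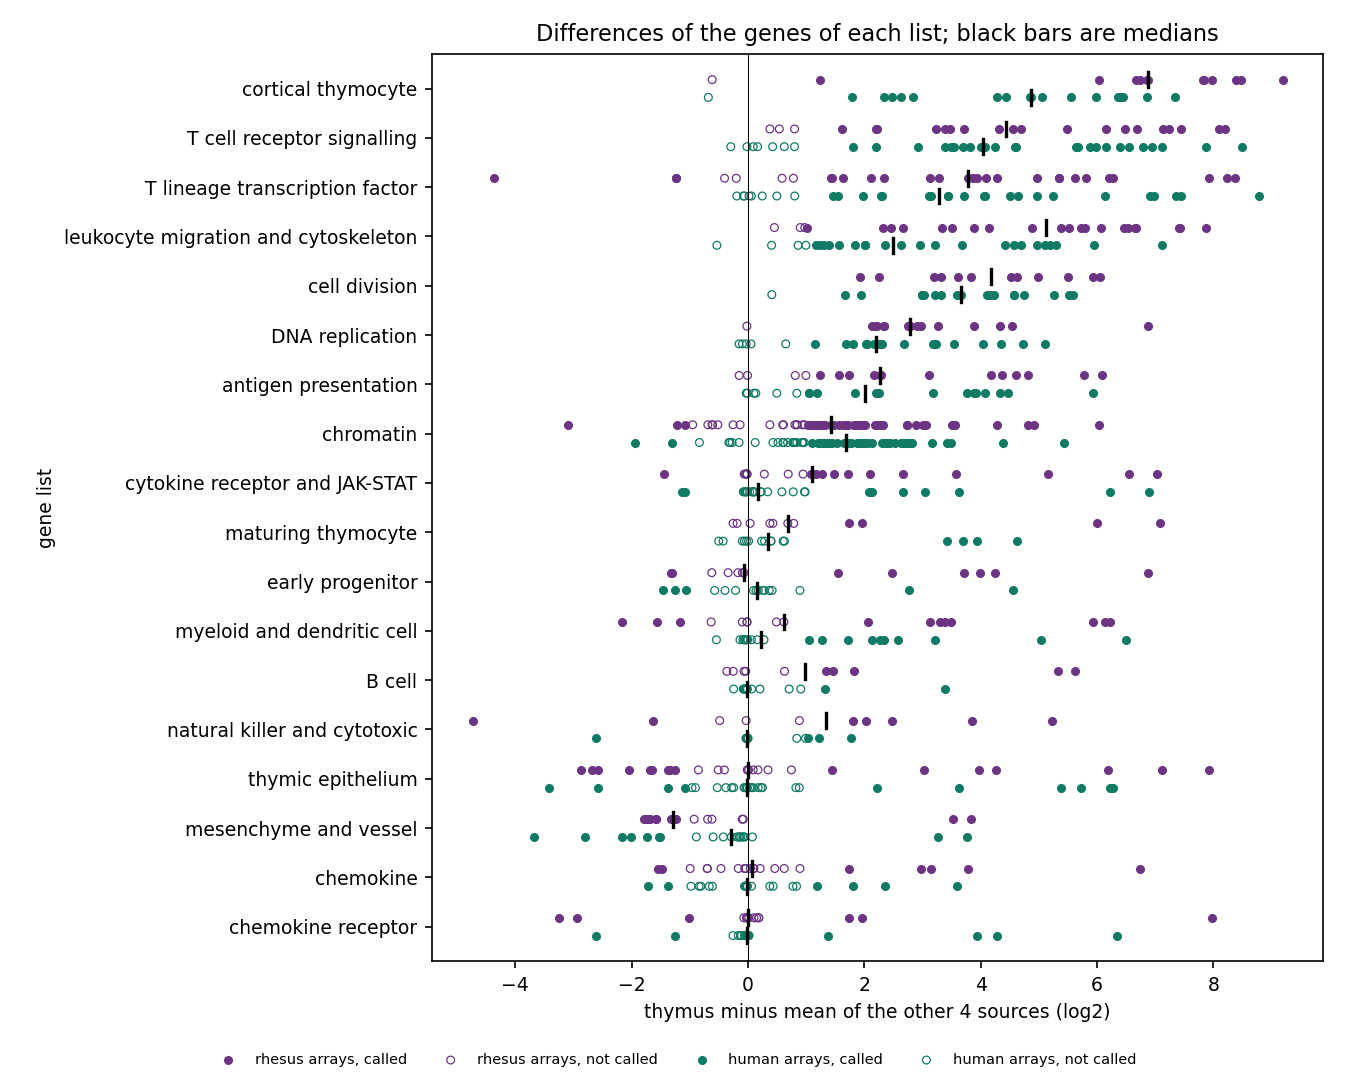
Thymus minus the mean of the other 4 sources (log2, horizontal axis) for the genes of 18 lists on rhesus and the human arrays. Each point is a gene, filled where it was called, and black bars are medians, which lay at 6.87 and 4.86 for the cortical list and at -1.28 and -0.29 for mesenchyme and vessel.

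Cell division genes were higher in thymus, and the source nearest to it was most often the cultured fibroblasts. All 12 measured on rhesus arrays were called higher (median 4.18), 11 of them above each other source, and 18 of 19 on human arrays (median 3.66), 13 of them above each. TOP2A, the topoisomerase that untangles chromosomes, was at 12.19 and 12.25 in thymus, at 10.04 in fibroblasts, 8.92 in testis, 3.44 in pancreas and 2.30 in cerebral cortex on rhesus arrays. MKI67, the proliferation antigen, was at 10.80 and 10.79 in thymus and 8.17 in fibroblasts. CCNB2, a mitotic cyclin, was at 11.14 and 11.11 in thymus and 8.90 in fibroblasts. On these 3 probe sets thymus stood above the cultured fibroblasts, by 2.18 for TOP2A, 2.62 for MKI67 and 2.23 for CCNB2.

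Replication genes were called in 15 of 16 on the rhesus (median 2.79) and 17 of 22 on human arrays (median 2.20), but fewer stood above each other source, 7 and 6. TYMS, which makes thymidylate, was at 10.53 and 10.41 in thymus and 10.76 in fibroblasts on rhesus arrays, and at 9.72 and 9.74 against 9.95 on human arrays. Its thymus minus fibroblast gaps were -0.28 and -0.22. E2F2, an activator of S phase genes, was unlike the rest: it was at 10.28 and 10.29 in thymus against 2.96, 3.13 and 4.55 on rhesus arrays (difference 6.88, limma adjusted p = 2.42e-08), and differed by 5.10 on human arrays. Its relative E2F1 was not called, at -0.02 and 0.05, with thymus at 4.36 and 4.27 on rhesus arrays.

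Among cell cycle regulators 10 of 14 were higher and 1 lower on rhesus arrays (median 1.77), and 8 of 16 were higher and 3 lower on human arrays (median 1.07). The shares of all genes were 16.7% and 9.65% higher and 18.1% and 10.1% lower. The D cyclins, which start the cycle with CDK4 and CDK6, were split. CCND3 was at 11.38 and 11.39 in thymus against 3.61, 6.94 and 9.25 on rhesus arrays, and differed by 4.70 and 3.36. CCND1 was at 4.21 and 4.88 in thymus and 10.03 in fibroblasts on rhesus arrays, and was lower by -2.12 and -2.07. Without fibroblasts the human value of CCND1 was -0.94, which was not called. CCND2 was lower by -1.57 on human arrays, and by -0.41 averaged over its probe sets, which was not called. The partner kinases followed a like split, with CDK6 at 3.50 and 3.32 above each other source and CDK4 at 0.35 and 0.80 not called. CDKN2C, an inhibitor of these kinases, differed by 4.02 on rhesus arrays.

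**Figure D3:**
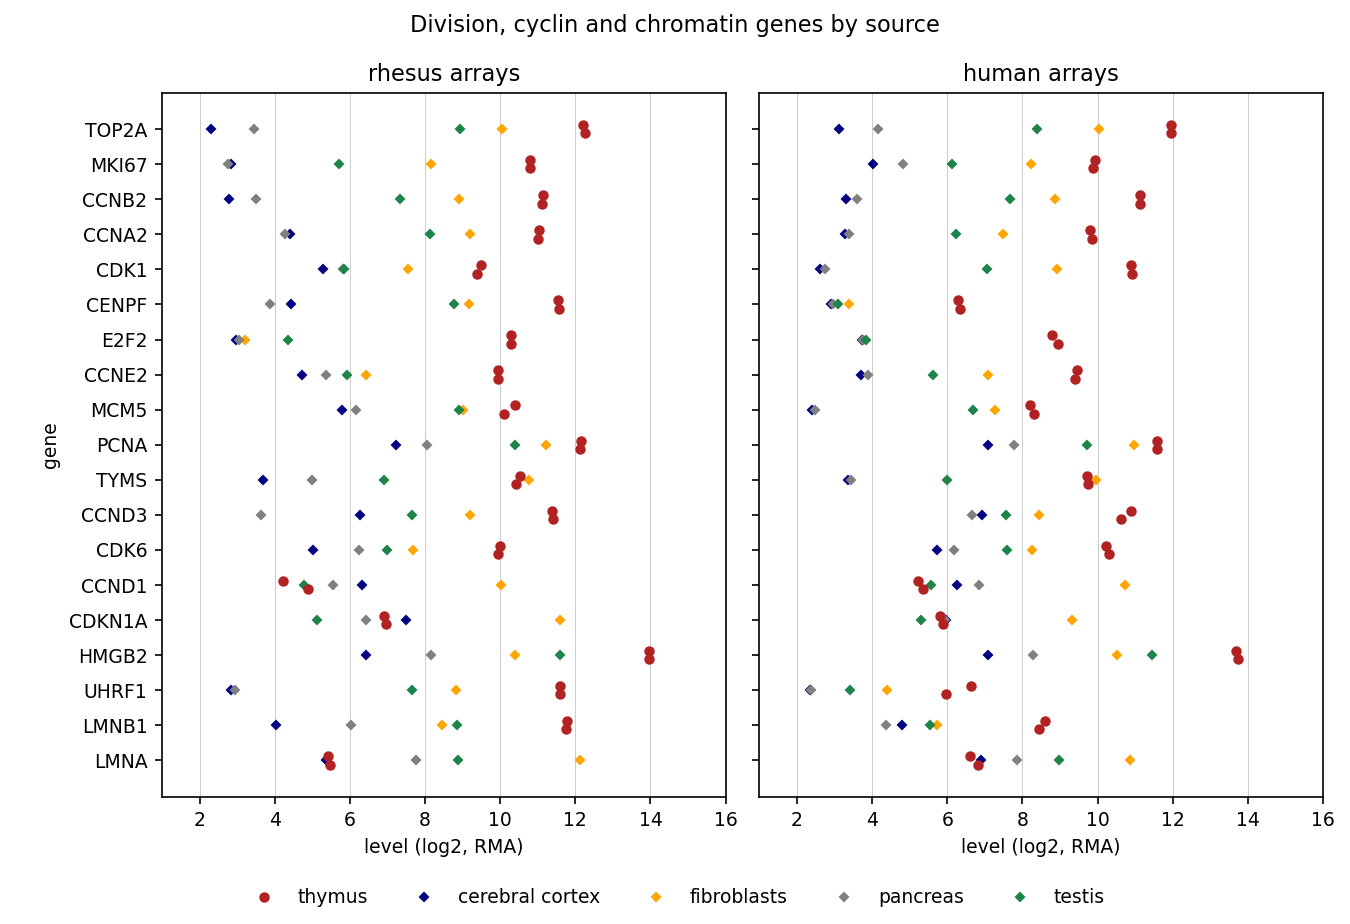
Log2 levels (horizontal axis) of 19 genes of cell division, replication, cell cycle control and chromatin in the 5 sources, on rhesus arrays (left) and human arrays (right). Red circles are the 2 thymus arrays and diamonds the mean of 2 arrays of each other source, and TOP2A lay at 12.19 and 12.25 in thymus and 10.04 in fibroblasts on rhesus arrays while CCND1 lay at 4.21 and 4.88 in thymus and 10.03 in fibroblasts.

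Chromatin genes were called higher in larger share than all genes, by smaller amounts than the T cell genes. On the rhesus arrays 39 of 57 were higher and 3 lower (median 1.43), and on human arrays 48 of 69 were higher and 2 lower (median 1.69). Above each other source were 13 and 20. In testis, 37 of 57 and 37 of 69 were called higher than the mean of cerebral cortex, fibroblasts and pancreas (medians 1.27 and 1.07). Of all genes 18.8% and 10.5% were higher in testis in this way, so the larger share was not particular to thymus. Of 56 on both types 36 were higher on both and 2 lower on both. With a minimum difference of 2 the counts called higher were 16 and 21, and without probe sets that match several transcripts the human count was 31.

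Nuclear lamina genes moved apart. LMNB1, a B-type lamin, was at 11.78 and 11.76 in thymus against 3.84, 7.28 and 8.98 on rhesus arrays, a difference of 4.92 (limma, adjusted p = 2.46e-07), and differed by 3.42 on human arrays. LBR, the lamin B receptor that tethers heterochromatin, differed by 4.29 and 2.77. LMNA, the A-type lamin of stiff and differentiated nuclei, was at 5.42 and 5.46 in thymus against 5.35, 8.29 and 12.17, and was lower by -3.09 and -1.94, although without probe sets that match several transcripts the human value was -0.65 and not called. Cerebral cortex, at 5.37, lay beside thymus for LMNA on rhesus arrays, and the other 3 sources lay above.

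HMGB2, a DNA-bending protein that also assists the RAG recombinase, was at 13.97 and 13.96 in thymus against 6.33, 9.31 and 11.63 on rhesus arrays. It differed by 4.82 and 4.38, although without probe sets that match several transcripts the human value was -0.02. The probe set left was near the floor in thymus (2.58 and 2.58) and elsewhere (2.57 to 2.66). UHRF1, which carries DNA methylation through replication, differed by 6.03 and 3.17. EZH2, the Polycomb methyltransferase of dividing cells, was at 10.95 and 10.96 in thymus and differed by 5.44 on human arrays, and its paralog EZH1 was at -0.14 and -0.15, not called. The remodeller ATPases showed the same contrast, with SMARCA4 at 2.68 on human arrays and SMARCA2 at -0.61 and -0.27, not called. Of 9 human SMARCA4 probe sets 6 were called higher and 0 lower. Without probe sets that match several transcripts SMARCA4 gave 0.02. The probe set left was near the floor in thymus (2.30 and 2.34) and elsewhere (2.24 to 2.32). CTCF, the insulator protein, differed by 2.66 on human arrays, HDAC1, a deacetylase, by 3.06 and 2.79, and CHD1, a remodeller of active genes, by 3.51 and 3.48. DNMT1, the maintenance methyltransferase, was called lower on the rhesus (-1.22) and higher on human arrays (2.74), on 1 probe set each. Its rhesus call was lost without cerebral cortex, at -0.01, without testis, at -0.60, and with most single arrays left out.

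Cell death genes were called higher in 9 of 16 on the rhesus (1 lower, median 1.29) and 8 of 20 on human arrays (1 lower, median 0.69). Among all genes 16.7% and 9.65% were called higher and 18.1% and 10.1% lower. BCL2L11, the BIM protein that kills self-reactive thymocytes, was at 10.35 and 10.35 in thymus against 3.88 to 7.98 on rhesus arrays, and differed by 3.55 and 2.93. BCL2L1, the survival factor of the CD4 and CD8 double-positive stage, differed by 2.38 and 2.31. DAPK1, a death-associated kinase, was lower by -2.47 and -1.74.

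Cytokine receptor and JAK-STAT genes were called higher in 12 of 22 on rhesus arrays (1 lower, median 1.09). On human arrays 7 of 28 were (2 lower, median 0.16), and 4 of 22 were higher on both types. Among all genes 16.7% were called higher on rhesus arrays, 9.65% on human arrays and 9.58% on both. IL2RG, the chain shared by receptors for lymphocyte cytokines, was at 11.07 and 11.12 in thymus against 3.70, 4.21 and 6.10 on rhesus arrays, and differed by 6.54 and 6.89. LTB, a lymphotoxin by which lymphocytes signal to stroma, differed by 7.03 and 6.23, with a human value of 0.43 without probe sets that match several transcripts. That value came from a probe set at 3.48 and 3.93 in thymus and 2.76 to 3.64 elsewhere. IL15, which supports killer lineages, differed by 3.57 and 3.05. IL7, the stromal survival cytokine of thymocytes, was at 3.89 and 3.92 in thymus, below 8.23 in pancreas and 6.71 in fibroblasts on rhesus arrays, and was called lower by -1.45 and -1.08. Without pancreas the IL7 values were -0.49 and -0.42, and the calls were lost, as they were without fibroblasts.

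Leukocyte migration and cytoskeleton genes were called higher in 21 of 24 on rhesus arrays (median 5.13) and 22 of 26 on human arrays (median 2.50), with none lower on either. RAC2, a small GTPase of blood cells, was at 11.60 and 11.67 in thymus against 2.50 to 5.31 on rhesus arrays, and differed by 7.88 and 4.41. DOCK8, an exchange factor needed for migration through tissue, differed by 6.53 and 5.29, and CORO1A, an actin regulator needed for thymic exit, by 5.38 and 5.94. Of the GIMAP GTPases of lymphocytes 4 of 5 were higher on rhesus arrays (median 4.19) and 2 of 7 on human arrays (median -0.01). For this list and the migration list, the shares of all genes called higher were 16.7% and 9.65%. GIMAP6 was called on both, at 4.49 and 2.48. GIMAP2 and GIMAP5 were at 5.01 and 4.13 on rhesus arrays and at -0.02 and -0.01 on human arrays, where all sources read near the floor.

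Chemokines were called higher in 5 of 22 on rhesus arrays (2 lower, median 0.07) and 4 of 25 on human arrays (2 lower, median -0.02), and their receptors in 3 of 16 (3 lower, median 0.00) and 4 of 20 (2 lower, median -0.02). Of all genes 16.7% were called higher on rhesus and 9.65% on human arrays. CCL19, the medullary ligand of CCR7, was at 9.64 and 9.68 in thymus against 2.76, 2.89 and 3.15 on rhesus arrays, and at 6.75 and 6.58 against 2.95, 3.06 and 3.25 on human arrays. Its differences were 6.75 and 3.60 (limma, adjusted p = 8e-09 and 1.38e-06), with thymus above every other array.

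CXCR4, a receptor of cortical thymocytes, was at 10.95 and 10.96 in thymus against 1.96, 2.14 and 5.70 on rhesus arrays, and differed by 7.98 and 6.34. Its ligand CXCL12 was at 8.24 and 8.19 in thymus but at 9.18 in testis, with differences of 2.97 and 2.36, and the mean of all its probe sets gave 0.90 and 0.53, below the call. On human arrays the other CXCL12 probe set was called lower (-1.31), with thymus at 3.25 and 2.80. ACKR3, a scavenger of the same ligand, was lower by -3.24 and -2.62. CCR9, the receptor for CCL25, differed by 4.29 on human arrays. CCL17, a dendritic cell chemokine, and XCL1, a medullary chemokine, were called on rhesus arrays, at 3.14 and 3.79, and not on human arrays, at 0.37 and -0.03.

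CCL25, the cortical epithelial ligand of CCR9, showed how far 1 gene could depend on its probe set. Its brightest rhesus probe set was at 10.52 and 10.57 in thymus against 9.68 to 11.56 elsewhere, a difference of 0.04. Another of its 4 rhesus probe sets was at 10.33 and 10.39 in thymus against 3.46 to 6.40 elsewhere, a difference of 6.04 (limma, adjusted p = 3.28e-07). On the human arrays CCL25 read 2.45 and 2.56 in thymus, near the floor, and was not called.

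Thymic epithelial genes were split between a few of the largest differences and many that did not move with thymus. On the rhesus arrays 7 of 26 were higher and 9 lower (median -0.01), and on human arrays 6 of 29 were higher and 4 lower (median -0.01). Of all genes 16.7% and 9.65% were called higher and 18.1% and 10.1% lower. PRSS16, a serine protease of cortical epithelium, was at 10.96 and 10.96 in thymus against 1.70, 2.60 and 5.03 on rhesus arrays, and differed by 7.92 and 6.28. CTSV, the cathepsin that prepares class II peptides in the thymus, differed by 7.12 and 5.38, although testis was at 9.15 on rhesus arrays. PAX1, a factor of the pharyngeal pouch, was at 8.61 and 8.93 against 2.40, 2.55 and 2.97 and differed by 6.19 and 3.63. These 3 genes were above each other source on both types.

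Others were measured on 1 type. PSMB11, the beta subunit of the thymoproteasome found in cortical epithelium, differed by 4.27 and TP63, the stem cell factor of stratified epithelium, by 3.97 on rhesus arrays, although TP63 averaged over its 6 probe sets gave 0.98, below the call. KRT14, a keratin of medullary and basal epithelium, was at 8.68 and 8.71 in thymus against 2.88, 2.93 and 3.23 on human arrays, a difference of 5.73. AIRE, which turns on tissue genes in medullary epithelium, was at 4.00 and 4.35 in thymus against 2.60 to 3.06 on rhesus arrays, a difference of 1.45, and was not called on human arrays (0.25). FOXN1, the master factor of thymic epithelium, was not called on either type, at 0.09 and 0.88, with thymus at 3.09 and 3.05 and every other human array at 2.16 to 2.21. EPCAM, a general epithelial adhesion molecule, was lower by -2.05 and -2.58 against a mean that included 11.16 in pancreas on rhesus arrays, and without pancreas the rhesus value was -0.51 and not called. KITLG, the ligand of KIT, was lower by -1.35 and -3.43, and the Notch ligand JAG1 by -1.25 and -1.08, a call lost on both types without pancreas.

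**Figure D4:**
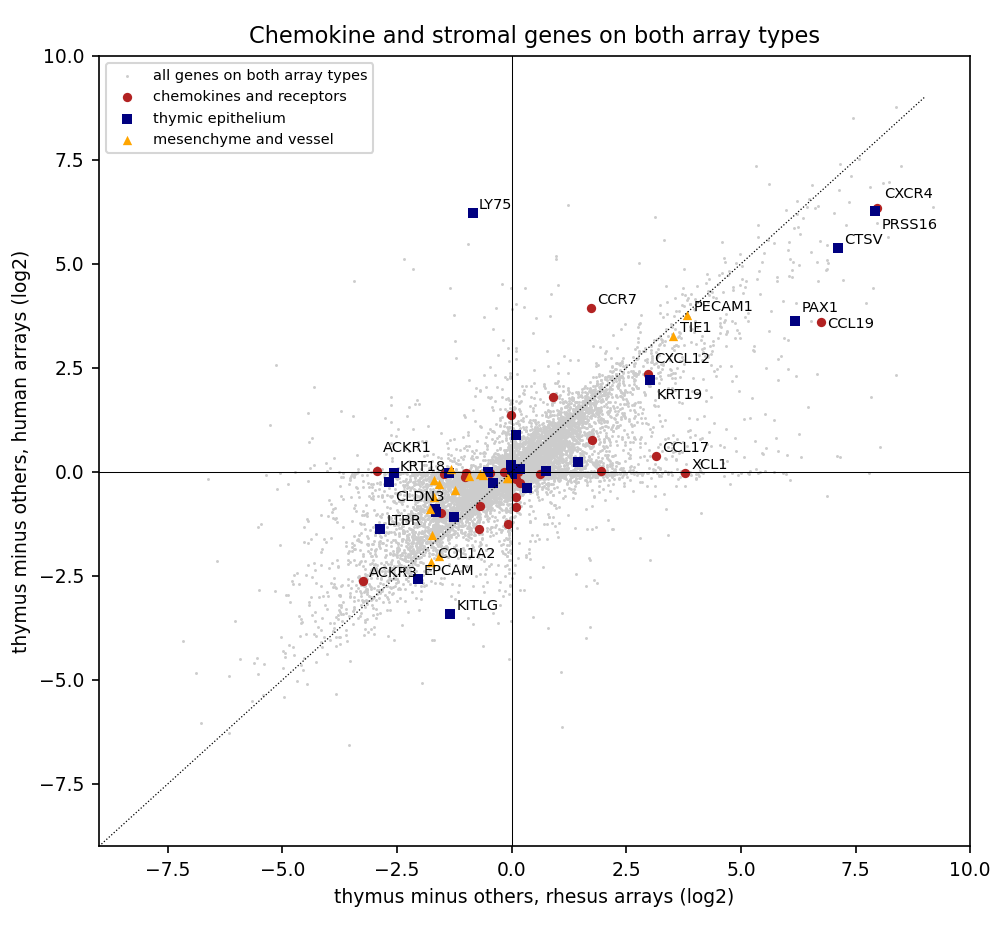
Thymus minus the mean of the other 4 sources (log2) for 11956 genes, on rhesus arrays (horizontal axis) and human arrays (vertical axis). Grey points are all genes, red circles chemokines and their receptors, blue squares epithelial genes and orange triangles mesenchyme and vessel genes, and the dotted line marks equal differences, with PRSS16 at 7.92 and 6.28 and EPCAM at -2.05 and -2.58.

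Mesenchyme and vessel genes leaned the other way, against a mean that held fibroblasts. On the rhesus arrays 2 of 16 were higher and 9 lower (median -1.28), and on human arrays 2 of 21 were higher and 7 lower (median -0.29). Of all genes 16.7% and 9.65% were called higher and 18.1% and 10.1% lower. The shares called higher were thus not above those of all genes. COL1A2, a collagen chain, was at 9.85 and 9.78 in thymus and at 14.92 in fibroblasts on rhesus arrays, and was lower by -1.77 and -2.17. Without fibroblasts its rhesus value was -0.66, not called. PDGFRA, the mesenchymal growth factor receptor, was lower by -3.68 on human arrays, and averaged over its probe sets by -0.94, below the call. Its other human probe sets read near the floor, with means of 2.20, 2.44 and 3.18 in thymus and 2.22, 2.46 and 3.21 elsewhere. The 2 higher genes were the same on both types: PECAM1, an adhesion molecule of endothelium, platelets and leukocytes (3.83 and 3.76), and TIE1, an endothelial receptor (3.53 and 3.27, with a human value of -0.20 without probe sets that match several transcripts). Further endothelial genes were not called, with VWF at -0.08 and -0.15 and CDH5 at -0.69 and -0.06.

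Genes of other cells that a thymus holds were called in part. Of 17 myeloid and dendritic cell genes 8 were higher and 3 lower on rhesus arrays (median 0.62), and of 22 on human arrays 10 were higher and none lower (median 0.22). S100A8, a calcium-binding protein of neutrophils and monocytes, was at 8.95 and 8.78 in thymus against 2.51, 2.63 and 2.77 on rhesus arrays. It differed by 6.23 and 6.50, with a human value of -0.03 without probe sets that match several transcripts. The probe set left was near the floor in thymus (2.67 and 2.65) and elsewhere (2.62 to 2.78). LYZ, lysozyme, differed by 6.13 and 5.03 and TYROBP, a myeloid signalling adaptor, by 3.31 and 2.57. The macrophage genes CD14 (-0.63 and -0.54) and CSF1R (0.62 and 0.16) were not called.

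Of 10 B cell genes 5 were higher on rhesus arrays (median 0.99) and of 15 on human arrays 2 were (median -0.03), a human share near the 9.65% of all genes. MS4A1, the CD20 protein, was at 8.24 and 8.43 in thymus against 2.60, 2.69 and 2.89 on rhesus arrays, and differed by 5.62 and 3.38, and CD79A, a B cell receptor chain, differed by 1.35 and 1.32. Of 10 natural killer and cytotoxic genes 5 were higher and 2 lower on rhesus arrays (median 1.34), and of 14 on human arrays 3 were higher and 1 lower (median -0.01). For these and the lists below, 16.7% and 9.65% of all genes were called higher and 18.1% and 10.1% lower. GZMB, a granule protease, differed by 5.23 and 1.77. The granzymes GZMA (-1.63) and GZMK (-4.74) were called lower on rhesus arrays, and on human arrays all sources read near the floor for both. Fat cell genes were higher in 3 of 7 and 2 of 10 (medians 0.93 and -0.02), and FABP4, the fatty acid carrier, was at 10.54 and 10.45 in thymus but at 12.65 in pancreas on rhesus arrays. Red blood cell genes were called in 0 of 3 and 0 of 5 (medians -0.07 and -0.02). Of genes of neighbouring gland and muscle 1 of 6 was called on rhesus arrays, CKM of muscle at 2.04 with cerebral cortex at 11.88 (0.31 averaged over its probe sets), and 0 of 9 on human arrays (medians -0.12 and -0.11). The part of blood and of neighbouring tissue in the thymus RNA was not tested beyond these values.

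Antigen presentation genes were higher in 13 of 17 on rhesus arrays (median 2.27) and 14 of 20 on human arrays (median 2.01), with none lower, and 10 of 16 were higher on both. HLA-DRA, a class II chain, was at 12.39 and 12.47 in thymus on human arrays against 9.77 in testis, 8.78 in pancreas, 4.32 in cerebral cortex and 3.11 in fibroblasts, a difference of 5.93. PSMB8, an immunoproteasome subunit, differed by 4.61 and 4.33, and TAP1, the peptide transporter, by 3.11 and 3.18. B2M, the class I light chain, was at 14.37 and 14.37 in thymus, at 14.23 in testis, 14.20 in fibroblasts and 13.65 in pancreas on rhesus arrays, and its differences of 0.99 and 0.84 were not called.

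Many of the brightest thymus genes had a second, lower level in testis. Genes were taken that were at 10 or more in thymus and below 4 in cerebral cortex, fibroblasts and pancreas, a reading chosen after the values were seen. On the rhesus arrays 22 genes met this, and testis was at 4 or more in 17 of them, with a median of 4.91 and a range of 2.86 to 8.45. On the human arrays 13 genes met it, with testis at 4 or more in 10, a median of 5.13 and a range of 3.11 to 9.37. The same reading with each of the other sources in the place of testis gave 0 of 5 genes for cerebral cortex, 0 of 5 for fibroblasts and 1 of 6 for pancreas on rhesus arrays, and 0 of 3 for each on human arrays. Genes below 4 in all 4 other sources entered every such reading. They were GATA3, PTCRA, DTX1, RHOH and SLAMF1 on rhesus arrays and TRAT1, LCK and ADA on human arrays. The gene sets were therefore not separate, and their shares cannot be set beside each other. What differed was the number of genes at 4 or more in 1 other source alone.

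Cortical thymocyte genes were among them. On the rhesus arrays CD1B was at 13.96 and 13.98 in thymus and 8.45 in testis, DNTT at 13.00 and 12.96 and at 7.88, CD1A at 12.15 and 12.03 and at 6.41, and MYB at 11.94 and 11.84 and at 6.14. PTCRA (2.86 in testis) and GATA3 (3.05) were near the floor there although thymus was above 10. On the human arrays PTPRC was at 9.37 in testis, RAG1 at 5.89, DNTT at 5.34 and GATA3 at 4.95, while ADA was at 3.37 and TRAT1 at 3.11. The gap between thymus and testis was 5.01 to 8.05 on rhesus arrays (median 5.97) and 3.91 to 7.25 on human arrays (median 5.49). Of the 13 cortical genes on rhesus arrays 9 were called higher in testis than in the mean of cerebral cortex, fibroblasts and pancreas, where 18.8% of all genes were, and of 18 on human arrays 3 were, where 10.5% were. Where these levels in the testis RNA came from was not tested. Without testis in the comparison 1380 genes on rhesus and 1102 on human arrays were above each remaining source.

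**Figure D5:**
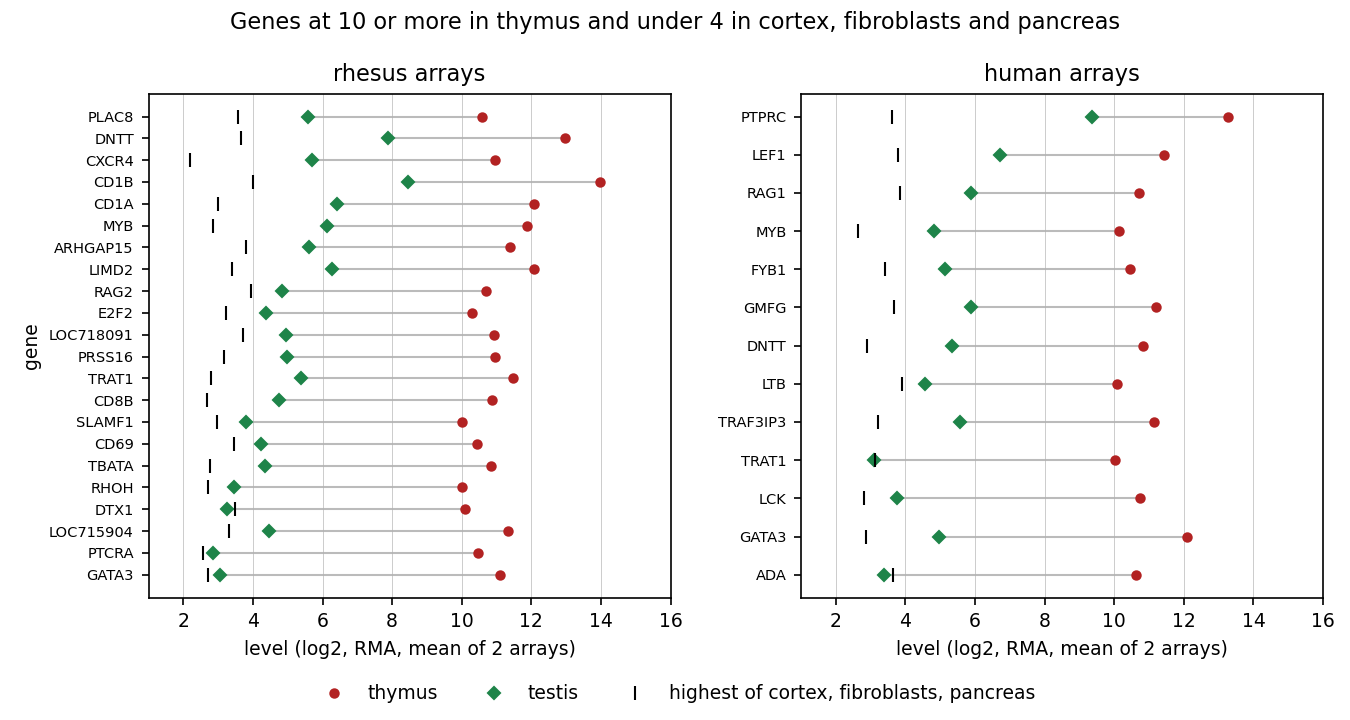
Log2 levels (horizontal axis) of genes at 10 or more in thymus and below 4 in cerebral cortex, fibroblasts and pancreas, in thymus, in testis and in the highest of the remaining 3 sources, on rhesus (22 genes) and human arrays (13 genes). Testis lay at a median of 4.91 on rhesus and 5.13 on human arrays.

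The 10 genes with the largest lower differences on both types were, with 1 exception, high in several of the other sources. TMEM47, a junction protein, was at 4.70 and 4.67 in thymus against 9.69, 10.70 and 12.33 on rhesus arrays, and was lower by -6.17 and -6.27 (limma, adjusted p = 1.26e-09 and 1.03e-07). GRB10, an adaptor that limits insulin signals, was lower by -5.41 and -5.36, and DDAH1, an enzyme of methylarginine breakdown, by -6.88 and -4.83. RUNX1T1, a transcriptional corepressor, was lower by -4.96 and -5.41. For these 4 genes every array of the other sources stood above the thymus arrays on both types. CAMK2N1, an inhibitor of a calcium-dependent kinase, was at 2.34 and 2.36 in thymus and at 13.38 in cerebral cortex, 10.11 in fibroblasts, 7.61 in pancreas and 5.40 in testis on rhesus arrays, and was lower by -6.77 and -6.03. DNER, a neuronal Notch ligand, was lower by -6.15 and -4.90, LDOC1 by -5.54 and -4.85, TCEAL3 by -4.99 and -4.71 and the sorting nexin gene SNX7 by -4.69 and -5.02. PLA2G1B, a secreted enzyme of pancreatic juice, was the exception. It was at 2.19 and 2.20 in thymus, at 15.37 in pancreas, 11.64 in testis, 2.26 in fibroblasts and 2.17 in cerebral cortex on rhesus arrays, with differences of -5.67 and -5.50.

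The array types did not always read a gene alike. Of the genes on both, 939 were called higher on rhesus arrays alone and 275 on human arrays alone, and 52 were called in opposite directions. The median differences of genes called higher on both were 2.03 on rhesus and 1.78 on human arrays. Among genes called on 1 type, the human minus rhesus difference was most negative for PRAM1 (-7.83), DTX1 (-7.44), LIMD2 (-7.43), GALNT1 (-6.79) and CD69 (-6.69). Without probe sets that match several transcripts the rhesus value of PRAM1 was -0.32 and not called. It came from a probe set at 2.93 and 2.94 in thymus, near the floor, and 2.81 to 3.96 elsewhere. The other rhesus probe set of DTX1 was at -0.94. LIMD2 was at 12.11 and 12.03 in thymus against 3.21 to 6.38 on rhesus arrays and at 5.07 and 4.07 against 3.91 to 4.03 on human arrays. GALNT1, an enzyme that starts O-glycans, was at 12.30 and 12.22 in thymus against 3.37 to 7.38 on rhesus arrays, and read 9.38 to 10.93 in the other sources on human arrays. The difference was most positive for LY75 (7.08), ATP8B3 (6.44), STK26 (6.43), ZNF732 (5.27) and TCF3 (5.17). Of these, ATP8B3 (-6.62), ZNF732 (-5.35) and TCF3 (-4.36) were called lower on rhesus arrays and were not called on human arrays. On human arrays ATP8B3 (2.64 in thymus, 2.81 elsewhere) and ZNF732 (2.84 and 2.92) read near the floor. All 10 differences passed the limma test between array types, with adjusted p-values of 7.44e-09 or below.

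Some of these genes had probe sets that differed from each other on 1 array type, which was read after the values were seen. LY75, the DEC-205 receptor of cortical epithelium and dendritic cells, was at 5.75 and 5.76 in thymus on its brightest rhesus probe set, a difference of -0.85, while its other rhesus probe set was at 11.59 and 11.45 against 2.96 to 6.77, a difference of 7.51. The human array gave 6.23. SATB1, a chromatin organizer of thymocytes, was at -0.20 on its brightest rhesus probe set, and the other 3 gave 5.74 to 7.77, against 4.51 on human arrays. LAT, the adaptor that links ZAP70 to calcium signals, was at 0.54 on its brightest rhesus probe set and 5.46 on 1 of the other 3. IRF8, a factor of dendritic cells, was at -2.16 on the brightest and at 4.73 and 5.19 on the others, and the human array gave 1.04. The human call of IRF8 was lost without 1 of the thymus arrays, at 0.74. For each of these 4 genes the brightest rhesus probe set read above 5 on at least 1 array of another source.

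RUNX3, a factor of CD8 cells, also had probe sets that differed on human arrays. Its brightest gave -0.02, but was near the floor in thymus (2.95 and 2.96) and at 2.81 to 3.80 elsewhere. Another gave 4.30, with 6.22 and 6.45 in thymus against 2.01 to 2.05. The gene NCAM1, of nerve and killer cells, had 2 of 10 rhesus probe sets called higher and 6 called lower. Of 5072 rhesus genes with more than 1 probe set that were not called higher on the brightest, 536 (10.6%) had another probe set called higher, and of 90 such genes of the lists 25 (27.8%) did. On the human arrays these counts were 399 of 9183 (4.34%) and 14 of 159 (8.81%). The list counts above used the brightest probe set throughout.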

How the data were processed

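For each array type the authors deposited a table with a log2 value for every probe set on every array. The submitters' notes on processing give RMA, whose version is not given in the sources used here. Whether both tables were processed together is not given either, so tests were run within each table. All columns were used. Sources came from the sample labels. Symbols were those of the array annotation. A rhesus gene table held 24629 of the 24969 rhesus probe sets with 1 symbol and changed the names of 0. Probe sets with several or no symbols were not read as genes.

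In R 4.3.3, limma 3.58.1 (lmFit and eBayes, 5 source means) was fitted without control probe sets, to 52766 on rhesus and 54613 on human arrays, with the contrast thymus minus the mean of the other 4 source means and Benjamini-Hochberg adjustment over all of them. The 4 pairwise contrasts decided whether a gene was above each other source. Array types were compared gene by gene in a limma fit over 20 arrays, by the human minus the rhesus contrast. On simulated data the fit recovered 86 of 100 rhesus probe sets changed by 1.5 and 99 of 100 changed by 3 (85 and 99 on human arrays), with 2 and 0 false calls and no wrong sign.

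The genes named were members of 25 lists (early progenitor, cortical thymocyte, maturing thymocyte, T cell receptor signalling, cytokine receptor and JAK-STAT, T lineage transcription factor, chromatin, chemokine, chemokine receptor, thymic epithelium, mesenchyme and vessel, fat cell, B cell, myeloid and dendritic cell, natural killer and cytotoxic, red blood cell, neighbouring gland and muscle, antigen presentation, cell division, DNA replication, cell cycle regulator, cell death, leukocyte migration and cytoskeleton, GIMAP family and housekeeping), the 20 largest higher and 10 largest lower differences called on both types, the 10 largest gaps to the highest other source, and the 5 largest differences between array types in each direction. The members and lists were chosen with earlier results of these data known. Alternatives were another scaling (quantile normalization, array medians or spiked controls subtracted), another minimum difference, other readings of a gene, a filter on dim probe sets, each array left out in turn, each source left out of the mean, an ordinary contrast and a replicate block. The precision was limited by the number of arrays, 2 per source and type, and counts of molecules were not part of these values.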

Additional observations from a re-analysis of the deposited data

Results flagged for a closer look

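For 4 genes of the lists, among the 52 of all genes, the difference between thymus and the mean of the other 4 sources was called in opposite directions on the 2 array types, and the human minus rhesus difference passed the limma test. NCAM1, an adhesion molecule of nerve and killer cells, had 1.80 on rhesus and -2.61 on human arrays, a difference of -4.40 (limma, adjusted p = 2.75e-08). TCF12 had -1.24 and 3.15, a difference of 4.39 (limma, adjusted p = 9.07e-12), DNMT1 had -1.22 and 2.74, a difference of 3.96 (limma, adjusted p = 3.22e-06), and IRF8 had -2.16 and 1.04, a difference of 3.20 (limma, adjusted p = 1.45e-07). The same RNA was on both types, so these were differences between readings and not between animals. The part of the probe sets in them was not tested beyond the values given above for other probe sets of NCAM1, TCF12 and IRF8.

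Probe sets with no gene symbol, which enter no comparison of genes, also held thymus signal. Of 27449 such rhesus probe sets 3324 (12.1%) were called higher in thymus, and of 11721 human ones 399 (3.40%), against 17.6% and 8.54% of probe sets with 1 symbol. The largest difference among them was 9.99 on rhesus arrays, with thymus at 14.42 and the highest other array at 9.46, and 6.77 on human arrays, with thymus at 11.87 and the highest other array at 6.94.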

How the results depend on the processing

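Leaving out 1 array in turn left 2305 to 2374 genes higher, 2506 to 2570 lower and 845 to 889 above each other source on rhesus arrays, and 1809 to 1925, 1855 to 1992 and 658 to 720 on human arrays. A lone array was then assumed to vary like the other sources. Replicate numbers did not pair the arrays (correlations of -0.0341 to 0.0177 between deviations), and a fit with the replicate block gave 2358 genes higher, 2554 lower and 884 above each on rhesus and 1901, 1981 and 700 on human arrays, with 1142 higher and 1168 lower on both. With no minimum difference the counts were 4190, 4886 and 1697 on rhesus arrays, 3476, 3928 and 1295 on human arrays and 2157 higher and 2274 lower on both. With a minimum of 2 they were 981, 1048 and 397, then 704, 697 and 309, then 416 and 388, with 2 maturing thymocyte genes (rhesus), 16 and 21 chromatin genes and 2 chemokines (human). Without testis in the mean 1380 and 1102 genes were above each remaining source. Subtracting spiked controls moved the median of all human genes to 0.142, against -0.0403 as deposited, with 2330 genes higher and 1675 lower, so human changes under that scaling are relative to this shift. Quantile normalization gave 1975 higher and 2781 lower on rhesus arrays. Averaging the probe sets of each gene left 2 chemokines called on human arrays and changed the sign of SATB1 (4.86 rhesus), LY75 (3.33 rhesus), NCAM1 (-0.82 rhesus), IRF8 (2.59 rhesus) and RUNX3 (1.44 human), which also changed sign without dim probe sets (4.30). Without probe sets of suffix _s_at or _x_at 31 chromatin genes were higher on human arrays. PRAM1 (-0.32 rhesus), CD8B (-0.0507), HMGB2 (-0.0194), CASP8 (-0.0538), TIE1 (-0.20), S100A8 (-0.0252) and IL16 (-0.12, all human) then lost their calls at values below 0. The probe sets left for CD8B, HMGB2, CASP8, S100A8 and IL16 had means of 2.40, 2.58, 3.07, 2.66 and 2.46 in thymus. Elsewhere they had 2.45, 2.60, 3.12, 2.69 and 2.58, so all were near the floor. That of PRAM1 had 2.93 in thymus and 3.26 elsewhere. The cause was not tested beyond these values. Of 363 values of named genes, 301 called, 56 lost their call at an unchanged sign under any of 24 alternatives. Under any of them 12 changed sign, and the calls lost in that way are counted there.

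With 2 technical arrays per source, a call says that thymus RNA differed from the mean of 4 other RNAs by more than the spread of hybridisations. It does not cover animals. Levels near the floor, at about 3, could not show a difference, and on human arrays probes made for human transcripts read rhesus RNA. On at least 1 array type the lower calls of CCND1 and COL1A2 were lost without fibroblasts in the mean, those of EPCAM and IL7 without pancreas, and those of KIT and DNMT1 without cerebral cortex.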
